A study of Mus musculus with 5 samples.

Results

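Cytosolic ribosomal protein genes were followed in the kidneys of DMXAA-treated and vehicle-treated mice. They were chosen by name (Rpl or Rps with a number and at most a short suffix, Rplp0 to Rplp2, and Rpsa, without the ribosomal S6 kinases), had to be protein coding in the GENCODE M21 annotation and needed at least 10 counts summed over all libraries. Of 54532 listed genes, 89 symbols had such a name, 83 of these were protein coding and 81 had enough counts, 49 of the large and 32 of the small subunit. The testis paralogues Rpl10l and Rpl39l had 0 counts and were left out. All 81 genes passed the expression filter and entered the test.

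The samples, titled renal tissues, were from wild-type C57BL/6J males, 8 weeks old. There were 2 DMXAA samples, from mice injected intraperitoneally with 10 mg/kg DMXAA on each of 3 days, and 3 vehicle samples, from mice injected with vehicle on the same schedule. All tissue was taken on day 3. DMXAA is an agonist of mouse STING, which relays the sensing of cytosolic DNA. The labels number the samples within a group and do not say whether each came from its own mouse, so p-values measure the spread between these samples. Markers of the proximal tubule, the main kidney epithelium, were detected in every library (10 of 10 markers with a count, summed to 24250 and 23770 CPM in DMXAA and to 18160 to 26070 CPM in vehicle). CPM are counts scaled to the TMM-adjusted size of the library. In whole tissue fewer cells of a type and less RNA per cell cannot be told apart.

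The proteins of the cytosolic ribosome are arranged on ribosomal RNA in a small subunit that decodes the message and a large subunit that forms peptide bonds. Their messages are short, abundant and begin with a pyrimidine tract (the 5′ TOP motif), which couples their translation and stability to mTORC1 through Larp1. They have also been copied back into the genome many times as processed, intron-less copies, so that a read from one of them may match several places.

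The sequences that bear on the values come first. For each coding sequence, processed copies were taken as other annotated genes at least 90% identical over at least 50% of it, with at least 50% of the copy's own transcript aligned. By this definition 78 of the 81 genes had 1003 copies between them, 987 of them pseudogenes, and 511 had a count in any library. Introns were not checked. The copies therefore include longer genes that overlap the gene itself, such as RPS10-NUDT3 at Rps10 and Gm28037 at Rpl24, both with 0 counts in every library. Rpl21 (chr5:146832890-146837032, plus strand) is shown beside Rpl21-ps15 (chrX:151215167-151215649, minus strand), its processed copy with the most reads, because gene and copy are nearly identical and their reads are set side by side further on. The stretch covers coding positions 324 to 444 of the GENCODE M21 transcript. Capitals mark the 3 bases, in 480 coding bases, at which copy and gene differ: T336C, G378A and T432C, with the gene's base first, the position counted from 1 at the first base of the start codon, and the copy's base last.
Rpl21: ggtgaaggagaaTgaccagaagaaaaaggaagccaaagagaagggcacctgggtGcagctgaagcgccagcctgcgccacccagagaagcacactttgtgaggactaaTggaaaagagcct
Rpl21-ps15: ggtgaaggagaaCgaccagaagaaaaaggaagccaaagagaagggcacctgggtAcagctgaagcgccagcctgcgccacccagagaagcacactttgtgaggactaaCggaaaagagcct
Rpl30 (chr15:34440505-34443640, minus strand) is shown with Rpl30-ps10 (chrX:71803688-71804034, plus strand) and Gm12191 (chr11:49678710-49679057, minus strand) over coding positions 1 to 108, because its direction changed with these copies. Over 345 coding bases Rpl30-ps10 differs by G10T, C20T and G96A, and Gm12191 by G96A alone. Capitals mark these positions in the gene and the differing bases in each copy.
Rpl30: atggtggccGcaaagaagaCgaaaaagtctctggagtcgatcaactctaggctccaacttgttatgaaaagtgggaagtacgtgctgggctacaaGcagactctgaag
Rpl30-ps10: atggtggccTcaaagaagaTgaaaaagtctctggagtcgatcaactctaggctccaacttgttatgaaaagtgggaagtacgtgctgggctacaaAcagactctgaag
Gm12191: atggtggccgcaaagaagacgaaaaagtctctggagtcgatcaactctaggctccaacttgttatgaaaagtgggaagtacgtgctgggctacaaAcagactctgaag
Rps27 (chr3:90212522-90213651, minus strand) and the retrogene Rps27rt (chr9:114982366-114982739, minus strand) had 0 differences over 252 coding bases, so 1 sequence without capitals stands for both.
Rps27 and Rps27rt: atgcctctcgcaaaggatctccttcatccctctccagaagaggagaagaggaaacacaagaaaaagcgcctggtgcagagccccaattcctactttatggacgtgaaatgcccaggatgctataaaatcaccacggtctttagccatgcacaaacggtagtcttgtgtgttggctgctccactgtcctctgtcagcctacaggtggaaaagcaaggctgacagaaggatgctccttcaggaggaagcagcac

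Most of the 81 genes had slightly lower levels in the DMXAA libraries, but none passed the test. The median log2 fold change, DMXAA over vehicle, was -0.18, against -0.01 over all 16226 genes tested. Estimates were below 0 for 74 genes and above 0 for 7, while 53.1% of all genes tested lay below 0. The quasi-likelihood test in edgeR with Benjamini-Hochberg adjustment called 0 of the 81, where the share over all genes was 0.0%, and the smallest adjusted p was 0.535. At an unadjusted p below 0.05 (background 6.55%), 6 genes were lower (background 2.65%) and 0 were higher (background 3.89%), and DESeq2 called 1 gene (background 0.296%), Rpl21. Both DMXAA libraries lay below all 3 vehicle libraries for 25 genes (background 12.3%) and above them for 1 gene, Rpl7l1 (background 13.7%), and the groups overlapped for 55.

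**Figure D1:**
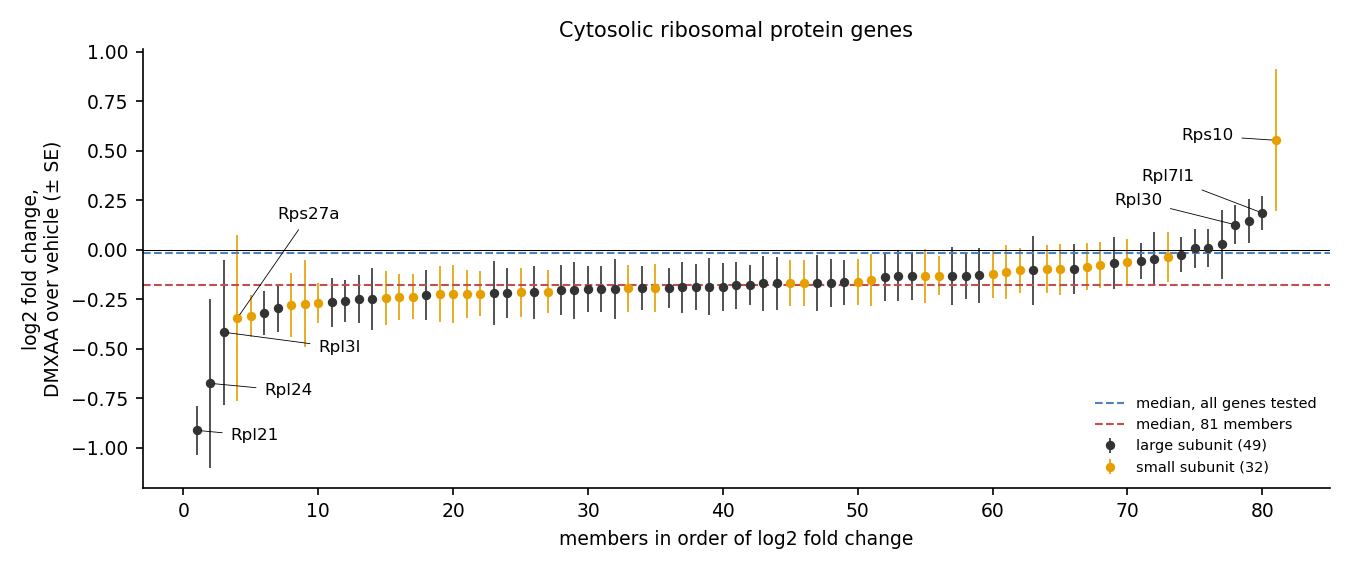
Log2 fold change, DMXAA over vehicle, of each of the 81 genes with its SE, in ascending order, coloured by subunit; dashed lines give the medians of the 81 genes (-0.18) and of all genes tested (-0.01). Apart from Rpl21, Rpl24, Rpl3l and Rps10, the genes form a narrow band between -0.4 and 0.2.

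The subunits had like medians. The median was -0.18 for the 49 large subunit genes, 43 of them below 0, and -0.18 for the 32 small subunit genes, 31 of them below 0. The spread among the genes was narrow, with 77 of 81 estimates between -0.4 and 0.2. The others were Rpl21 and the 3 genes with the lowest mean levels, Rpl24, Rps10 and Rpl3l.

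The low median rested on vehicle libraries 2 and 3. Relative to the mean of all 5 libraries, the median log2 level of the 81 genes was -0.11 and -0.09 in DMXAA libraries 1 and 2, against -0.11, 0.19 and 0.12 in vehicle libraries 1, 2 and 3. The groups therefore overlapped, with vehicle library 1 at the level of the DMXAA pair. Of the 81 genes, 58 were highest in vehicle library 2 and 36 were lowest in vehicle library 1. The shares over all genes tested were not taken for these counts. Summed, the genes took 1.95% and 1.99% of all counts in DMXAA, against 2.04%, 2.27% and 2.34% in vehicle. The large subunit genes took at most 1.17% in DMXAA and 1.20%, 1.35% and 1.37% in vehicle, and the small subunit genes 0.791% and 0.816% in DMXAA and 0.840%, 0.929% and 0.971% in vehicle. In these shares the groups did not overlap, but vehicle library 1 was closer to the DMXAA libraries than to the other 2 vehicle libraries. In TMM-scaled CPM the groups overlapped. The 81 genes summed to 19680 and 20010 CPM in DMXAA and to 19490, 23990 and 22990 CPM in vehicle, with vehicle library 1 the lowest.

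**Figure D2:**
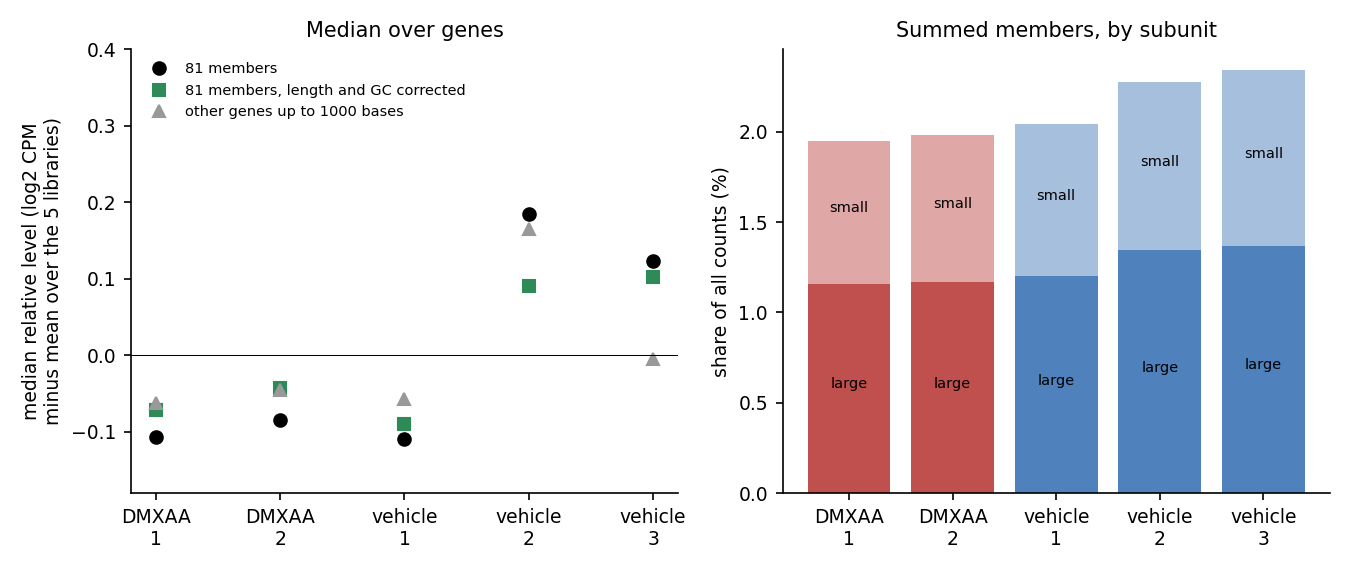
Left, median relative log2 level in each library of the 81 genes, of the same genes after a length and GC correction, and of other genes with transcripts of up to 1000 bases; right, summed share of all counts in percent, split by subunit. The 81 genes sit near -0.1 in both DMXAA libraries and in vehicle library 1, and above 0 in vehicle libraries 2 and 3.

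Vehicle library 1 also stood apart in some lists of tissue markers. The 8 adipose markers, all with a count, summed to 47.6 and 55.7 CPM in DMXAA and to 678, 27.7 and 50.5 CPM in vehicle libraries 1, 2 and 3. The 7 urothelial markers, all with a count, summed to 8.44 and 4.33 CPM in DMXAA and to 118, 2.45 and 13.1 CPM in vehicle, and the 7 collecting duct markers to 678 and 785 CPM in DMXAA and to 1367, 598 and 759 CPM in vehicle. The 7 red blood cell markers, all with a count, summed to 112 and 95.1 CPM in DMXAA, against 344, 244 and 169 CPM in vehicle, and here the groups did not overlap. The summed ribosomal protein genes overlapped between the groups in CPM, though not as a share of all counts. No marker of these 4 lists was at 0 in all libraries. Other vehicle libraries stood out in other lists. Vehicle library 3 was lowest in the proximal tubule markers (18160 CPM). It was highest in the macrophage (284 CPM, against 188 to 242 CPM elsewhere), B cell and T cell markers. Vehicle library 2 was lowest in the endothelial markers (267 CPM, against 360 to 443 CPM elsewhere). The part of any of these markers in the ribosomal protein levels was not tested. Without vehicle library 1 the median log2 fold change was -0.26 and 45 genes were lower at an unadjusted p below 0.05 (background 4.64%), with 0 called. With vehicle library 2 left out there were 3 such genes (background 5.08%) and the median was -0.11, and with vehicle library 3 left out there was 1 (background 1.97%). Leaving out DMXAA library 1 gave 1 such gene (background 1.36%) and leaving out DMXAA library 2 gave 2 (background 0.626%), in fits where the remaining DMXAA library is assumed to vary as the vehicle libraries do.

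Short transcripts other than the 81 genes, with processed copies of the family not left out, also had mostly lower estimates. Taking for each gene the median length of its best-ranked GENCODE transcripts, the 81 genes had a median of 827 bases, against 2674 bases for all genes tested. Among 702 other genes with transcripts of up to 1000 bases and a mean log2 CPM above 3, the median log2 fold change was -0.10 and 74.1% were below 0. Only the 81 genes themselves were removed from this class. Expressed copies such as Rps27rt (log2 fold change -0.51) and Rpl21-ps15 (-0.19) were not, and the class without copies was not examined. The 54 ribosomal protein genes in that length and level class had a median of -0.19. In single libraries those other short genes had median relative levels of -0.06 and -0.05 in DMXAA, against -0.06, 0.17 and -0.01 in vehicle libraries 1, 2 and 3, so that they stood above 0 in vehicle library 2 but not in vehicle library 3. With each gene's transcript length and GC content corrected for, the median of the 81 genes was -0.11, with 69 below 0 (background 53.4%), and 1 gene instead of 6, Rpl21, was lower at an unadjusted p below 0.05 (background 2.53%). The corrected median relative levels were -0.07 and -0.04 in DMXAA, against -0.09, 0.09 and 0.10 in vehicle.

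**Figure D3:**
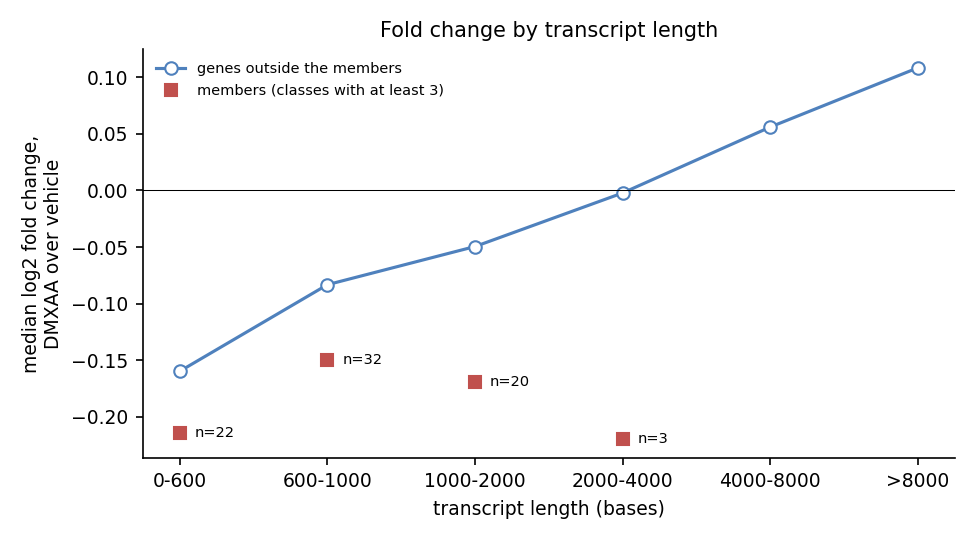
Median log2 fold change, DMXAA over vehicle, by transcript length in bases, among genes with a mean log2 CPM above 3, for genes outside the family (circles) and for ribosomal protein genes in classes that hold at least 3 of them (squares, with their number). The medians of other genes run from -0.16 at up to 600 bases to 0.11 above 8000 bases, and the ribosomal protein genes lie below them in each class shown.

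Rpl21 had the largest difference of the 81 genes. It encodes a protein of the large subunit. Its counts were 903 and 841 in DMXAA, against 1505, 1668 and 1502 in vehicle, or 50.1 and 41.8 CPM in DMXAA and 81.4, 94.8 and 83.3 CPM in vehicle. Both DMXAA libraries lay far below every vehicle library, and vehicle library 1 lay at the level of the other 2. The mean was 46.0 ± 5.85 CPM in DMXAA (SD, n = 2) and 86.5 ± 7.28 CPM in vehicle (SD, n = 3), a ratio of 0.531. The log2 fold change was -0.91 (SE 0.12, edgeR adjusted p = 0.535, unadjusted p = 1.70e-04), and -0.85 after the length and GC correction. DESeq2 called the gene (adjusted p = 5.50e-06), as did edgeR without an expression filter (adjusted p = 0.0067, background 0.121%).

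The copies of Rpl21 overlapped between the groups. Its 75 processed copies had 1515 and 1679 counts in DMXAA, against 1470, 1802 and 1712 in vehicle. Rpl21-ps15, the sequence printed above with 3 differing bases, held 1052 and 1127 of these in DMXAA and 1075, 1218 and 1223 in vehicle. The share of reads of gene and copies that was given to the gene itself was 37.3% and 33.4% in DMXAA, against 50.6%, 48.1% and 46.7% in vehicle, and the groups did not overlap. Summed over gene and copies, the level was 134 and 125 CPM in DMXAA and 161, 197 and 178 CPM in vehicle, still without overlap, and the log2 fold change was -0.46 (SE 0.11, edgeR adjusted p = 0.724). BC004004, a longer gene whose transcript holds a stretch 98.5% identical to the Rpl21 coding sequence, had 3464 and 3945 counts in DMXAA and 3005, 3696 and 3383 in vehicle. In CPM BC004004 stood at 192 and 196 in DMXAA and at 162.5, 210 and 188 in vehicle, highest in vehicle library 2. With it added to the sum the log2 fold change was -0.17 (edgeR adjusted p = 0.793). Rpl21 with BC004004 and without the copies summed to 242 and 238 CPM in DMXAA and to 244, 305 and 271 CPM in vehicle. BC004004 itself had a log2 fold change of 0.06 (SE 0.12). Adding reads that differ little between the groups brings a log2 fold change closer to 0 by construction, so the sums do not show where the difference arose. In CPM, the difference of the means, DMXAA minus vehicle, was -40.5 for Rpl21 alone and -49.1 for Rpl21 with its processed copies (130 CPM in DMXAA, 179 CPM in vehicle). That difference was not taken for the sums with BC004004. How reads matching several places were counted is not stated in the labels or the file, and its part in the difference was not tested.

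Rps27, a small subunit protein with a zinc finger, had an identical copy with nearly as many reads. Its counts were 1721 and 3044 in DMXAA, against 2532, 2336 and 3211 in vehicle, and those of the identical Rps27rt were 2264 and 1167 in DMXAA, against 1937, 2872 and 2226 in vehicle. Within DMXAA, the library with few Rps27 reads had many Rps27rt reads. Rps27 was given 43.2% and 72.3% of the pair's reads in DMXAA and 56.7%, 44.9% and 59.1% in vehicle. The pair's sum was 221 and 210 CPM in DMXAA, against 242, 296 and 302 CPM in vehicle, without overlap. Its log2 fold change was -0.27 (SE 0.22) alone, and -0.38 (SE 0.13, edgeR adjusted p = 0.735) summed with all 10 of its processed copies.

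Rpl30, a large subunit protein that in yeast regulates the splicing of its own transcript, had an estimate above 0 alone and below 0 with its copies. Its counts were 3256 and 3182 in DMXAA, against 2972, 2743 and 2695 in vehicle. In CPM the groups overlapped, with 181 and 158 CPM in DMXAA and 161, 156 and 149.5 CPM in vehicle. Rpl30-ps10 had 16 and 137 counts in DMXAA and 129, 374 and 418 in vehicle, and Gm12191 had 114 and 299 in DMXAA and 194, 468 and 519 in vehicle. Both copies were lowest in DMXAA library 1 and highest in vehicle libraries 2 and 3. The log2 fold change of Rpl30 was 0.13 (SE 0.10, edgeR adjusted p = 0.802) alone and -0.09 (SE 0.10, edgeR adjusted p = 0.852) summed with its 16 processed copies.

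**Figure D4:**
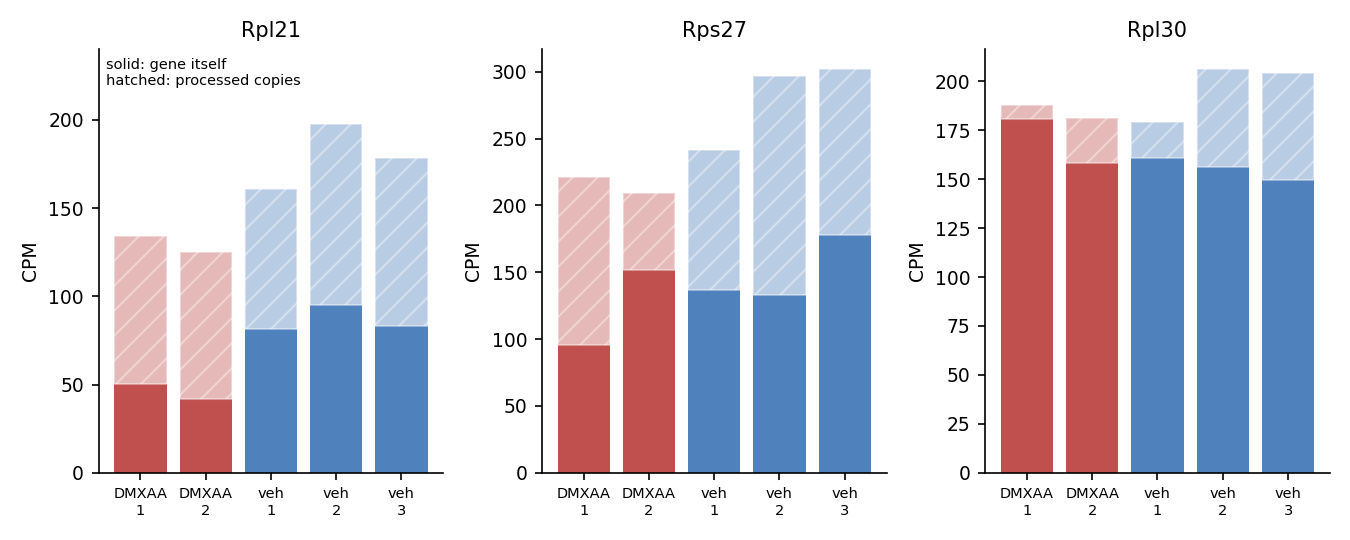
CPM of Rpl21, Rps27 and Rpl30 in each library, with the gene itself as the solid part of a bar and its processed copies as the hatched part, DMXAA in red and vehicle in blue. The whole bars of Rpl21 and Rps27 are lower in both DMXAA libraries, while the solid part of Rps27 and the whole bars of Rpl30 overlap between the groups.

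Across the family, 22 genes had more than 10% of their summed counts in processed copies and 4 had more than 50%: Rps10, Rpl24, Rpl17 and Rpl21. With counts summed over copies, 79 of 81 estimates lay below 0 (background 53.0%) and the median remained at -0.18. DMXAA was below all vehicle libraries for 26 genes (background 12.3%) and above them for 1. Rpl17, a large subunit protein at the end of the peptide exit tunnel, had 83.1 and 102 CPM in DMXAA against 82.1, 85.6 and 83.8 CPM in vehicle, with a log2 fold change of 0.15 alone and -0.13 summed. Copies made up 71.7% of its summed counts. Rps10, a small subunit protein near the message entry channel, had only 49 and 34 counts in DMXAA and 28, 32 and 21 in vehicle, and 97.8% of its summed counts were in copies. In CPM Rps10 overlapped between the groups, with 2.72 and 1.69 CPM in DMXAA and 1.51, 1.82 and 1.165 CPM in vehicle. Its log2 fold change was 0.55 (SE 0.36) alone and -0.22 (SE 0.12) summed. Rpl24 and Rpl13a, singled out after their values were seen, were also low for ribosomal protein genes. Rpl24 had 9 and 9 counts in DMXAA and 12, 16 and 13 in vehicle, and Rpl13a had 269 and 306 in DMXAA and 313, 311 and 309 in vehicle. Rps10, Rpl24 and Rpl13a are each overlapped on the same strand by a longer annotated gene that had 0 counts in every library.

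After Rpl21, the genes with the smallest p below 0 were Rps21, Rpl34, Rps13, Rpl35a and Rpl36a. All encode small structural proteins, and human RPL35A is mutated in Diamond-Blackfan anaemia. Rps21 had 143 and 146 CPM in DMXAA, against 164, 195 and 188 CPM in vehicle, a log2 fold change of -0.33 (SE 0.11, edgeR adjusted p = 0.724). Rpl34 had 171 and 178 CPM in DMXAA, against 199, 239 and 217 CPM in vehicle, a log2 fold change of -0.32 (SE 0.11, edgeR adjusted p = 0.740). In both, the DMXAA libraries lay close together and vehicle library 1 was the lowest of the vehicle libraries. Rps13 had 135 and 140 CPM in DMXAA, against 153, 180 and 165 CPM in vehicle. Rpl35a had 145 and 151 CPM in DMXAA and 157, 193 and 195 CPM in vehicle, and Rpl36a had 94.5 and 99.5 CPM in DMXAA and 104, 119 and 126 CPM in vehicle. These 3 had log2 fold changes of -0.27, -0.30 and -0.26. The groups did not overlap in any of the 5 genes, which picking by small p favours. With the length and GC correction the 5 estimates shrank to between -0.22 and -0.18.

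The P stalk, which recruits elongation factors to the large subunit, is formed by Rplp0 with Rplp1 and Rplp2. Rplp0 had the highest mean CPM of the family, with 767 and 777 CPM in DMXAA, against 716, 847 and 861 CPM in vehicle, and the groups overlapped. Rplp1 had 438 and 454 CPM in DMXAA, against 464, 547 and 513 CPM in vehicle, and Rplp2 had 186 and 188 CPM in DMXAA, against 196, 222 and 225 CPM in vehicle. For these 2 the DMXAA libraries were lower without overlap, though by little relative to vehicle library 1. The log2 fold changes were -0.07 for Rplp0, -0.19 for Rplp1 and -0.19 for Rplp2, each within 2 SE of 0.

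Of the other abundant genes, some overlapped between the groups and some did not. In the large subunit, Rpl4, which reaches into the peptide exit tunnel, had 629 and 609 CPM in DMXAA and 580, 732 and 721 CPM in vehicle. Rpl10, which joins the subunit late in its assembly, had 467 and 467 CPM in DMXAA and 455, 623 and 588 CPM in vehicle. Rpl41, the shortest of these proteins, had 505 and 489 CPM in DMXAA and 489, 585 and 390 CPM in vehicle. In each of these the DMXAA values fell within the vehicle range. Vehicle library 3, where Rpl41 was lowest, had 2107 counts of its identical copy Gm10076, against 385 and 584 in DMXAA and 479 and 620 in vehicle libraries 1 and 2. Per kilobase of each gene's shortest best-ranked transcript, Rpl41 had the highest mean level of the family, 1125 CPM per kilobase, and the median over the family was 338 CPM per kilobase.

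In the small subunit, Rpsa, which was first described as a laminin receptor, had 457 and 468 CPM in DMXAA, against 490, 590 and 542 CPM in vehicle, without overlap. Rps3a1 had 419 and 419 CPM in DMXAA, against 423, 483 and 505 CPM in vehicle, also without overlap. Rps2 had 577 and 610 CPM in DMXAA and 543, 652 and 634 CPM in vehicle, and Rps3, at the message entry channel, had 405 and 423 CPM in DMXAA and 423, 482 and 515 CPM in vehicle. The DMXAA values of Rps2 lay within the vehicle range, and those of Rps3 met its lower end. The log2 fold changes were -0.22 for Rpsa, -0.17 for Rps3a1, -0.04 for Rps2 and -0.19 for Rps3. Rps27a, which is made as a fusion with ubiquitin and was singled out after its values were seen, varied widely within both groups, with 77.0 and 125 CPM in DMXAA and 79.0, 207 and 100.1 CPM in vehicle.

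Genes whose symbols mark them as paralogues of another gene of the family were compared with their partners. Rpl7l1, a nucleolar relative of Rpl7, had 97.7 and 102 CPM in DMXAA, against 85.2, 91.3 and 87.7 CPM in vehicle. It was the one gene whose DMXAA libraries were both above all vehicle libraries (log2 fold change 0.18, SE 0.08, edgeR adjusted p = 0.744), and it stood at 0.19 after the length and GC correction. Its partner Rpl7 had 435 and 427 CPM in DMXAA, against 437, 527 and 502 CPM in vehicle, a log2 fold change of -0.18 (SE 0.12). Rpl22l1 had 22.6 and 23.7 CPM in DMXAA, against 24.4, 30.7 and 25.8 CPM in vehicle, and Rpl22, with roles in lymphocyte development, had 185 and 174 CPM in DMXAA, against 187, 233 and 221 CPM in vehicle. Both members of that pair were lower without overlap, with log2 fold changes of -0.22 and -0.25. Rps27l, a p53-inducible paralogue of Rps27, had 122 and 127 CPM in DMXAA, against 135, 162 and 138 CPM in vehicle, a log2 fold change of -0.21 (SE 0.11). Rpl3l, the paralogue used in striated muscle, was near the limit of measurement with 39 and 32 counts in DMXAA and 36, 61 and 38 in vehicle, while Rpl3, which lies near the catalytic centre, had 404 and 386 CPM in DMXAA and 389, 466 and 444 CPM in vehicle.

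Promoters were searched for CCGGAAG, the core bound by ETS factors, on both strands from 250 bases before to 50 bases after the annotated start, in RefSeq sequence of GRCm38.p6. An entry existed for 61 of the 81 genes, and 25 of these (41.0%) held the motif, against 9.93% of 27025 genes with an entry. The median log2 fold change was -0.17 for the 25 genes with it and -0.19 for the 36 without it. The stretches below run from 90 bases before the start to 20 after it, for the 3 named genes with the smallest p whose stretch held it, with matches in capitals. They lie at chr2:180257289-180257398 on the plus strand for Rps21, chr3:130730318-130730427 on the minus strand for Rpl34 and chr9:66945996-66946105 on the plus strand for Rps27l.
Rps21: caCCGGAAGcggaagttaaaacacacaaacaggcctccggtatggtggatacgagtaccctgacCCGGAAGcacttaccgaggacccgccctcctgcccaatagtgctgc
Rpl34: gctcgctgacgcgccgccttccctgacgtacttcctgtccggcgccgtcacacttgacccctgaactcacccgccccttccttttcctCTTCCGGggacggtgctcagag
Rps27l: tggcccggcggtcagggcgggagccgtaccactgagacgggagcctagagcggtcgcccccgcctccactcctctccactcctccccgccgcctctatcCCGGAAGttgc
A match is a run of letters in the sequence, and binding was not measured.

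The wider translation machinery was described with lists of genes outside the family, none of which held a gene called by edgeR. Counts in these lists stand against 53.1% of all genes tested below 0, 2.65% lower and 3.89% higher at an unadjusted p below 0.05, and 12.3% and 13.7% with DMXAA below or above all vehicle libraries. Of the components outside the name rule, Fau and Rack1 were described, both below 0 (median log2 fold change -0.12). Rack1, the scaffold at the small subunit, had 396 and 397 CPM in DMXAA and 364, 451 and 483 CPM in vehicle, with overlap. Of the other 5′ TOP transcripts, 19 of 20 were below 0 (median -0.14), 0 of them at an unadjusted p below 0.05. The lists share genes, so their counts are not separate. Fau, Rack1, Npm1, Eif3e, Eif4b, Eef1a1, Eef1b2, Eef1d, Eef1g, Eef2 and Tpt1, among others, stand both in this list and in another. Naca, the nascent chain binding subunit, had 192 and 191 CPM in DMXAA, against 201, 255 and 233 CPM in vehicle, without overlap, and Npm1, a nucleolar chaperone, had 143 and 124 CPM in DMXAA and 134, 173 and 162 CPM in vehicle. The list's median relative level was -0.06 and -0.10 in DMXAA, against -0.15, 0.17 and 0.14 in vehicle, so that vehicle library 1 was low here too.

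The 7 tested snoRNA host genes, whose messages carry a 5′ TOP motif but encode no ribosomal protein, were all below 0, with a median log2 fold change of -0.39, and 2 were lower at an unadjusted p below 0.05 (background 2.65%). Gas5 had 39.0 and 28.5 CPM in DMXAA, against 39.7, 48.3 and 53.9 CPM in vehicle (log2 fold change -0.49, SE 0.18, edgeR adjusted p = 0.742). Snhg1 had 5.66 and 4.73 CPM in DMXAA, against 7.30, 6.71 and 7.54 CPM in vehicle, and Snhg8 had 10.4 and 8.26 CPM in DMXAA, against 11.03, 13.8 and 11.9 CPM in vehicle. The groups did not overlap in these 3, which picking by small p favours, and DMXAA was below all vehicle libraries in 4 of the 7 (background 12.3%). The list's median relative level was -0.09 and -0.38 in DMXAA, against -0.04, 0.24 and 0.16 in vehicle, with DMXAA library 2 the lowest.

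Of the 10 elongation and termination factors, several of which are also among the other 5′ TOP transcripts, 8 were below 0 (median -0.10). Eef2, the translocase, had 1811 and 1769 CPM in DMXAA and 1607, 2182 and 2270 CPM in vehicle, Eef1b2 had 186 and 189 CPM in DMXAA and 183, 214 and 220 CPM in vehicle, and Eef1d had 75.7 and 70.7 CPM in DMXAA and 72.7, 104 and 91.5 CPM in vehicle. All 3 overlapped, again through vehicle library 1. Of 37 initiation factors, 24 were below 0 (median -0.03), where the share over all genes tested was 53.1%. At an unadjusted p below 0.05, 0 were higher (background 3.89%) and 2 were lower (background 2.65%). These were the eIF3 subunit genes Eif3g, with 47.5 and 41.3 CPM in DMXAA against 54.3, 61.7 and 58.2 CPM in vehicle (log2 fold change -0.39), and Eif3d, with 39.4 and 40.2 CPM in DMXAA against 46.8, 50.4 and 45.7 CPM in vehicle (-0.26).

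Genes that build ribosomes and regulate the family were centred close to 0. Of 40 biogenesis factors, 26 were below 0 (median -0.05), with 2 higher (background 3.89%) and 1 lower (background 2.65%) at an unadjusted p below 0.05, close to the background shares. The lower one was Nop10, of the pseudouridylation particle, with 50.4 and 47.6 CPM in DMXAA against 62.3, 68.5 and 60.2 CPM in vehicle (log2 fold change -0.38, SE 0.10). The higher ones were Tsr1, a small subunit assembly factor, with 19.7 and 19.2 CPM in DMXAA against 16.6, 15.3 and 15.4 CPM in vehicle, and Nmd3, the large subunit export adaptor, with 27.8 and 31.8 CPM in DMXAA against 24.6, 24.6 and 26.0 CPM in vehicle. For Nop10, Tsr1 and Nmd3 the groups did not overlap, which picking by small p favours. RNA polymerase I genes had 7 of 13 below 0 (median -0.01), and ribosomal stress and surveillance genes 8 of 14 (median -0.01), with 0 at an unadjusted p below 0.05 in either list.

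Among 23 mTORC1 and TOP regulators 11 were below 0 (median 0.03), and 3 had an unadjusted p below 0.05 (background 6.55%), 2 of them higher and 1 lower. Mtor itself had 255 and 254 CPM in DMXAA, against 209, 213 and 194 CPM in vehicle (log2 fold change 0.31, SE 0.09, edgeR adjusted p = 0.724). Eif4ebp1, the translation repressor that mTORC1 phosphorylates, had 14.3 and 14.4 CPM in DMXAA, against 19.5, 17.9 and 17.4 CPM in vehicle (log2 fold change -0.35). Larp4, a poly(A)-associated La-related protein, had 119 and 123 CPM in DMXAA, against 99.9, 107 and 103 CPM in vehicle (log2 fold change 0.22). In these 3 genes vehicle library 1 lay with the other vehicle libraries and the groups did not overlap, which picking by small p favours. Over the list, DMXAA lay below all vehicle libraries for 2 genes (background 12.3%) and above them for 3 (background 13.7%), and none was called.

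**Figure D5:**
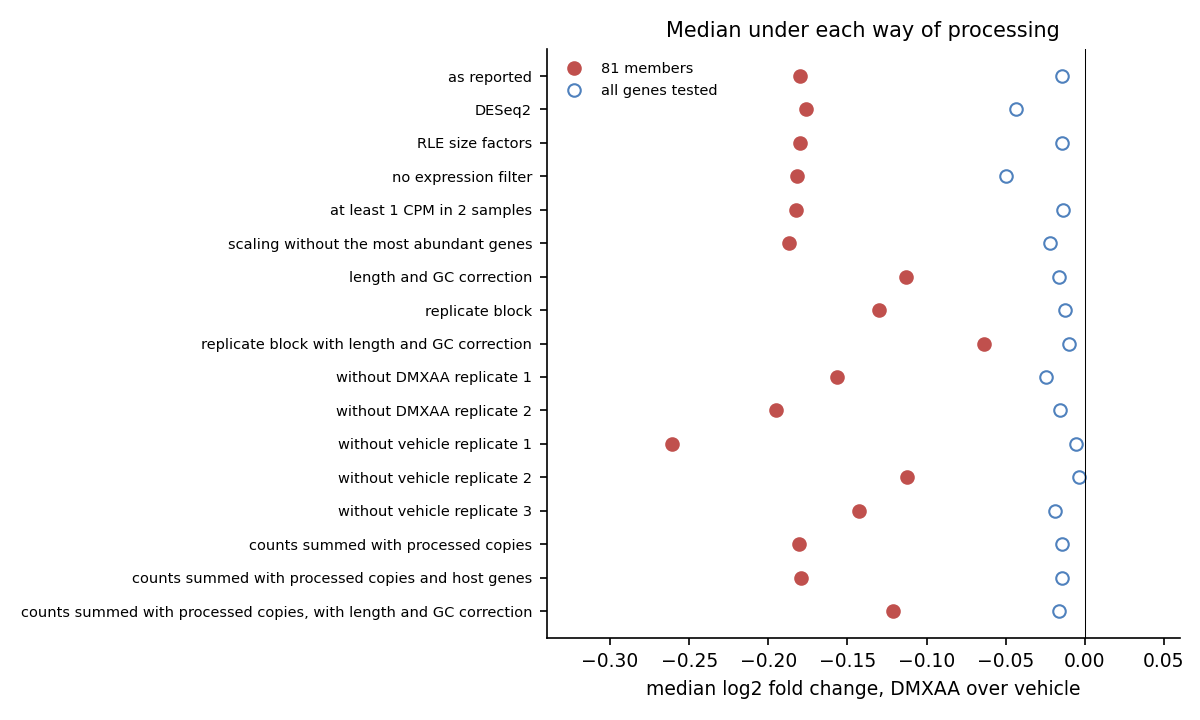
Median log2 fold change, DMXAA over vehicle, of the 81 genes (filled) and of all genes tested (open) under each way of processing, listed from top to bottom with the reported one first. The median of the 81 genes stays below that of all genes in each, and runs from -0.26 without vehicle replicate 1 to -0.06 with the replicate block and the length and GC correction.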

How the data were processed

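The authors deposited 1 table of raw counts, with a row for each Ensembl gene ID. The submitters' processing notes name HISAT2, Subread, featureCounts and DESeq2 1.16.1 and the build mm10. How strand and multiply matching reads were handled is not stated by labels or header. The labels' protocols name 2 library kits without saying which sample had which. Columns were assigned by name, control as vehicle and XA as DMXAA. Totals were 18176586 and 20264228 counts in DMXAA and 17667490, 18552912 and 17712843 in vehicle. A gene without counts may have up to 0.148 to 0.170 CPM (3 counts, for counting error alone). All pairs of libraries differed beyond sampling noise (chi-square over its degrees of freedom 7.43 to 39.0).

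Symbols, lengths and sequences came from GENCODE M21, on the same assembly. Groups were compared with edgeR 4.0.16 (R 4.3.3) by its two-sided quasi-likelihood F test, after TMM scaling and the default filter, which kept 16226 genes, and with no covariate. The threshold was 0.05 on p-values adjusted by Benjamini-Hochberg over those genes. Copies were found with blastn 2.17.0. CPM were computed from the deposited counts. The members and lists were chosen with earlier results of these data known. Named genes were the 6 with the smallest p on each side of 0, the 4 highest mean CPM per subunit, paralogues with their partners, the P stalk, Rpsa, Rpl21 and up to 3 genes of each other list. Not every gene under this rule is described, and 1 gene of the lists is not reported here. Alternatives were DESeq2 1.42.0, RLE size factors, 2 other filters, scaling without the 20 most abundant and the mitochondrial genes, a length and GC spline correction, the replicate block and leaving out each library. Sums over copies were added after seeing the data. The scripts were tested on simulated data.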

Additional observations from a re-analysis of the deposited data

How the results depend on the processing

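The median of the 81 genes lay below 0 under all alternatives run, from -0.26 to -0.06, and leaving out 1 library gave -0.26 to -0.11. The log2 ratio of their mean shares of counts, DMXAA over vehicle, was -0.17, and -0.23 to -0.13 with 1 library left out. Among the 81 genes 1 was called by DESeq2 and 1 by edgeR without a filter, Rpl21 in both. Over all genes DESeq2 called 54, edgeR without a filter 34 and edgeR with 1 library left out 0 to 2. Whether the replicate numbers pair the samples was not settled. Deviations from group means correlated at 0.075 and 0.081 for 2 pairs with the same number. With 2 DMXAA libraries these deviations mirror each other, so the 2 values are not separate, and pairs with unlike numbers were not compared. With the replicate block, alone or with the length and GC correction, 4 genes were called over all genes and 0 of the 81, whose medians were -0.13 and -0.06, with 74 and 57 of them below 0 and 1, Rpl21, lower at an unadjusted p below 0.05 in each.

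Among the lists, components outside the name rule had a median of 0.042 with block and correction, against -0.12 as reported. With 1 library left out, snoRNA hosts ranged from -0.56 to -0.27, mTORC1 and TOP regulators from -0.031 to 0.064 and ribosomal stress genes from -0.049 to 0.048; the last were at -0.046 with the block and -0.045 with block and correction. Of the 81 genes, 5 changed sign with the length and GC correction, 2 with the block, 17 with both, 5 when summed with copies, 11 when summed and corrected and 2 to 7 with 1 library left out. The genes named by rule among these were as follows, and the cause was not tested. Summing processed copies, adding host genes, and summing with the correction gave -0.13, -0.13 and -0.10 for Rpl17, -0.090, -0.090 and -0.023 for Rpl30, and -0.22, -0.22 and -0.11 for Rps10. The first 2 gave -0.072 and -0.071 for Rpl41, which was -0.10 with the block. Rps2 was 0.049 with the correction, 0.10 with block and correction and 0.053 summed and corrected, Rplp0 0.045 with block and correction, and Rpl15 -0.0007 without the most abundant genes in the scaling. With 1 library left out, Rpl15 ranged from -0.043 to 0.038, Rpl17 from -0.011 to 0.29, Rpl41 from -0.11 to 0.18, Rps2 from -0.12 to 0.015 and Rps27 from -0.64 to 0.027. Genes under about 50 counts a library, such as Rpl24, Rps10 and Rpl3l, are limited by depth.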

Other observations

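Of the symbols with a ribosomal protein name, 6 belong to pseudogenes and were left out. Among them Rpl6l had 2623 counts and Rps4l 1328 counts summed over the 5 libraries more each than the coding genes Rpl24, Rps10 and Rpl3l. All processed copies together took 0.168% and 0.164% of counts in DMXAA, against 0.174%, 0.196% and 0.212% in vehicle. Genes and copies together took 2.12% and 2.15% in DMXAA, against 2.22%, 2.47% and 2.55% in vehicle, the same order of libraries as for the genes alone.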
